A study of Mus musculus with 6 samples.

Results

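The keratin genes were followed as one family across H3K27me3 and H3K4me3 ChIP-seq peaks of mouse colonic organoids, which are cultures of colonic epithelial cells grown as hollow structures in a gel. Members were the protein-coding genes of the GENCODE mouse annotation (GRCm38/mm10) whose symbol is Krt followed directly by a number, and 51 of 21951 protein-coding genes were reported under this rule. Of these, 26 lay in the type I cluster on chromosome 11 (99232761 to 100269871, 1037 kb from Krt222 to Krt42) and 25 in the type II cluster on chromosome 15 (101347444 to 102032027, 685 kb from Krt80 to Krt18). Krt18 is a type I keratin, but its gene lies at the end of the type II cluster, beside that of its partner Krt8. Organoids of C57BL/6 (wt) mice were either left untreated or cultured with 40 ng/ml TNFα, an inflammatory cytokine, for 3 weeks (wt+TNFα). No engineered allele was labelled in either group, and TNFα is the one difference between the groups that the labels give. Each condition had 1 library per mark and 1 input, so every value below comes from a single library, and differences between wt and wt+TNFα have no replicate check and no test. The library of a condition and the condition itself cannot be told apart.

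Keratins form the intermediate filaments of epithelial cells. A filament is built from pairs of an acidic (type I) and a basic (type II) chain, and each epithelium uses its own pairs: Krt8 with Krt18 or Krt19 in the single-layered epithelium of the gut, Krt5 with Krt14 in the basal layer of the skin, Krt1 with Krt10 above it, and separate sets in the hair follicle. H3K27me3 is laid down by Polycomb complexes and marks repressed genes, often in broad domains. H3K4me3 marks the start sites of active genes. The study used the 2 marks to ask how TNFα reshapes the chromatin of colonic epithelial cells.

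A peak is a stretch in which the authors' caller found more ChIP reads than in the local background, and its fold enrichment is the ChIP signal divided by that background. Fold enrichments and q-values were computed in each library separately, so their levels were not compared between conditions. Where a fixed threshold on −log10 q is named below, it falls at a different rank in each H3K27me3 list, since the median −log10 q was 0.779 in the wt list and 1.34 in the other. The H3K27me3 lists stood apart from each other: the wt list covered 101 Mb of the autosomes and 0.597 Mb of the X chromosome, and the wt+TNFα list covered 228 Mb and 74.7 Mb. The H3K4me3 lists were close in size, with 11552 and 11894 peaks, but 3 wt peaks and 0 wt+TNFα peaks lay on the Y chromosome. All keratin genes are autosomal. The labels do not say whether the organoids of both conditions came from the same animal or line, so a difference between lines and an effect of TNFα cannot be told apart in any comparison of wt with wt+TNFα below. Sequencing depth also differed between the conditions for H3K4me3 and input, and its part in the results was not tested. H3K4me3 lay at the promoters of 9 of 9 colonic epithelium markers in both conditions. Krt8, Krt18 and Krt19 were among them, and these are also genes of the family described here. It lay at 0 of 8 markers of other cells, which had H3K27me3 at 5 and 6 promoters. Over all protein-coding genes, the shares in wt and wt+TNFα were 50.5% and 51.2% for H3K4me3, and 21.6% and 29.4% for H3K27me3. In bulk samples, a mark present in fewer cells and a weaker mark in every cell cannot be told apart.

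The sequences below are examples. The promoters of Krt8 and Krt18 had H3K4me3 in both conditions. Those of Krt34 and Krt90 were fully under H3K27me3 in wt and free of it in wt+TNFα, and that of Krt26 was the reverse. The wt peaks at Krt34 and Krt90 had a −log10 q of 1.13 and 1.79, so neither was kept at a threshold of 2. The peaks at Krt90 and Krt26 overlapped peaks of the other condition outside the promoter. At Krt34, 8.05% of the 150-base stretches of the promoter occurred more than once in the cluster. The sequences run from 250 bases before to 50 bases after the start of the RefSeq gene (GRCm38.p6), 5′ to 3′. Capitals mark CpG dinucleotides, the sites of DNA methylation. Krt8 lies at chr15:102004293-102004592, minus strand, with 6 CpGs in 300 bases. Krt18 lies at chr15:102027966-102028265, plus strand, with 17 CpGs. Krt34 lies at chr11:100041505-100041804, minus strand, with 4 CpGs. Krt90 lies at chr15:101562901-101563200, minus strand, with 2 CpGs. Krt26 lies at chr11:99337916-99338215, minus strand, with 6 CpGs.
Krt8: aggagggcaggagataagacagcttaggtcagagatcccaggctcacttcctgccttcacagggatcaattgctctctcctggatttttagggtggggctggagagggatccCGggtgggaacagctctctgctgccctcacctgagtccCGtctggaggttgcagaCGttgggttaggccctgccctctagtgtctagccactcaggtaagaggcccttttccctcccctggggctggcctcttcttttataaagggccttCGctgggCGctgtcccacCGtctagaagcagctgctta
Krt18: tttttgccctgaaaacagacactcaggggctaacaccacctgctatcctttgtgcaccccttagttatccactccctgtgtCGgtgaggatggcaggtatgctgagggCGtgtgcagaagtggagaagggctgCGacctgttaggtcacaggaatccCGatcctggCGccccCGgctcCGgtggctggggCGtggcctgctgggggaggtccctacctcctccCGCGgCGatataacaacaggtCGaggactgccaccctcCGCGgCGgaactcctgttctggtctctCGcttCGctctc
Krt34: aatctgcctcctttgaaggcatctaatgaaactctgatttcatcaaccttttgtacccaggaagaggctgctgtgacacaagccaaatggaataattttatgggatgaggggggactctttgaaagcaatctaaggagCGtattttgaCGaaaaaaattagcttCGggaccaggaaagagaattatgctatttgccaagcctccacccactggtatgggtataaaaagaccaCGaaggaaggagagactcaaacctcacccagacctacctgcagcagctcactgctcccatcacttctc
Krt90: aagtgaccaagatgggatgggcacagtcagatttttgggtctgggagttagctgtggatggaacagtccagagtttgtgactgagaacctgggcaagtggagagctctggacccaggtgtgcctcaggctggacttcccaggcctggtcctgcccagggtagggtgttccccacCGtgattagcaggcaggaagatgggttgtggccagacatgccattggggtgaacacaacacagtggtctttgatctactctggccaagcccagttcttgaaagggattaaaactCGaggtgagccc
Krt26: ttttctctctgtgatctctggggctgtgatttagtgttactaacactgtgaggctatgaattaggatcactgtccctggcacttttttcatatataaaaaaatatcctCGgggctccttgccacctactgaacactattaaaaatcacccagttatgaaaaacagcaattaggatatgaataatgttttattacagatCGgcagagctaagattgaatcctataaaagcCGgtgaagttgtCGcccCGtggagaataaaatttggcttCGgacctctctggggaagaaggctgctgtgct

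All 300 bases of the Krt8 and Krt18 sequences lay under H3K4me3 in both conditions, and none under H3K27me3. The Krt34 and Krt90 sequences lay wholly under H3K27me3 in wt and had 0 bases under it in wt+TNFα. The Krt26 sequence had 0 bases under H3K27me3 in wt and 300 in wt+TNFα.

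H3K4me3 at a promoter, taken as 1000 bp on each side of every annotated transcript start, was seen at 4 of 51 keratin genes in wt and at 4 in wt+TNFα, against 50.5% and 51.2% of all protein-coding genes. They were Krt8, Krt18, Krt19 and Krt10 in both conditions. The first 3 are the keratins of simple epithelia such as the colon, and Krt10 is the type I keratin of the suprabasal epidermis. None of the 4 had H3K27me3 at the promoter or within the gene in either condition. In neither condition did any of the 51 keratin promoters carry both marks (0 in each), against 5.17% and 7.62% of all protein-coding genes.

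The Krt8 peak ran from 102000788 to 102004944 in wt, over 4157 bp, at a fold enrichment of 39.2. It reached 462 bp upstream of the gene and covered 794 bp of exon and 2901 bp of intron. In wt+TNFα it ran from 101999958 to 102004663, over 4706 bp, with a fold enrichment of 41.2. The peak thus stopped 281 bp closer to the start on the upstream side and reached 830 bp farther into the gene in wt+TNFα. Each was above most of its own list, with 82.7% of wt peaks and 84.5% of wt+TNFα peaks at a lower fold enrichment. A second, weak Krt8 peak was called in wt+TNFα alone, at 102005022 to 102006073, from −1591 to −540 bp relative to the 5′ end of the gene. Its fold enrichment was 4.87, which only 1.03% of the list fell below. Krt18, the filament partner of Krt8, had a peak of 2047 bp (fold enrichment 32.5) in wt and of 1891 bp (30.2) after TNFα. Its edges moved by 41 and 115 bp.

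Krt19 carried one of the widest H3K4me3 peaks of either list. It spanned 6102 bp in wt (100140985 to 100147086) and 6127 bp in wt+TNFα (100140953 to 100147079), wider than 99.7% and 99.5% of the peaks of its list. Fold enrichments were 30.7 and 31.6, and the edges differed by 7 and 32 bp. The peak covered the annotated starts at 100143699 and 100146120 and left the outermost start at 100148665 free in both conditions. The Krt10 peak was weaker, at a fold of 17.8 over 1605 bp in wt and 14.9 over 1570 bp after TNFα. It lay over the inner start at 99386097 inside the gene, whereas the outer start at 99389364 had no H3K4me3. With 1 start per gene, the outermost, only Krt8 and Krt18 were counted. By bases called in one condition and not in the other, H3K4me3 was gained at 2 keratin promoters, Krt8 (461 bp) and Krt10 (7 bp), against 40.9% of all protein-coding genes. It was lost at 4 of 51 (7.84%), against 21.1%, by 281 bp at Krt8, 42 bp at Krt10, 41 bp at Krt18 and 7 bp at Krt19. Only genes with H3K4me3 in wt could lose it: these 4, and 11083 of all protein-coding genes, of which 4636 did.

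**Figure D1:**
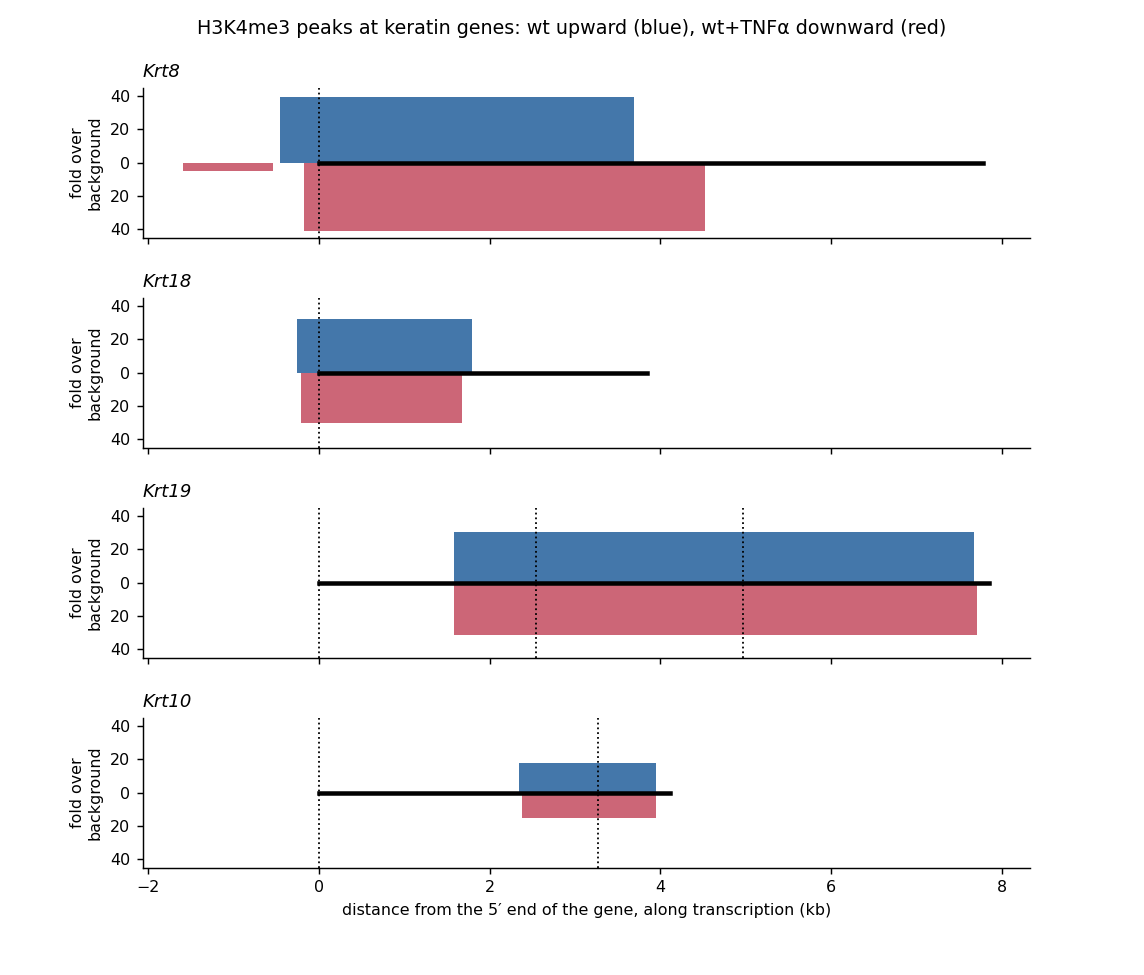
H3K4me3 peaks at the 4 keratin genes that had one, by distance from the 5′ end of the gene in kb; bar height is the fold enrichment over background, wt upward in blue and wt+TNFα downward in red, black bars are the genes and dotted lines the annotated starts. The edges of the Krt18, Krt19 and Krt10 peaks differed by at most 115 bp between conditions, whereas at Krt8 the downstream edge differed by 830 bp and wt+TNFα had an added upstream peak of 1052 bp.

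H3K4me3 peaks away from the promoters were few. Upstream of Krt19, wt+TNFα had a peak of 2176 bp at 100155766 to 100157941, 7.10 kb from the 5′ end, and one of 802 bp at 100158363 to 100159164, 9.70 kb away. Their fold enrichments were 8.29 and 7.12, and wt had no peak there. Between Krt8 and Krt18, a peak 10.3 kb upstream of Krt18 was called in both conditions, at a fold of 6.36 and 5.99, respectively. Another near Krt9, 24.3 kb from its 5′ end, had fold enrichments of 8.31 and 3.82. These distal peaks were weak within their lists, where at most 10.98% of peaks had a lower fold enrichment.

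H3K27me3 lay at many more keratin promoters. In wt it was found at 33 of 51 keratin genes, against 21.6% of all protein-coding genes, and in wt+TNFα at 31, against 29.4%. Both conditions shared 27 of them (background 20.4%), and 14 keratin genes had none in either condition (background 69.4%). In wt alone it was seen at 6 genes, Krt33a, Krt34, Krt80, Krt88, Krt90 and Krt4, against 1.21% of all protein-coding genes. In wt+TNFα alone it was seen at 4 genes, Krt26, Krt40, Krt42 and Krt6b, against 9.0%. Only genes without H3K27me3 in wt could be in wt+TNFα alone: 18 keratin genes and 17201 protein-coding genes, of which 4 and 1976 were. Only genes with it in wt could be in wt alone: 33 keratin genes and 4750 protein-coding genes, of which 6 and 265 were. On the autosomes alone, where the keratins lie, the backgrounds were 22.3% in wt, 27.5% in wt+TNFα, 1.27% in wt alone and 6.48% in wt+TNFα alone. Since 1 broad peak can cover several genes, the 33 genes of wt rested on 28 peaks and the 31 of wt+TNFα on 21.

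By base, H3K27me3 was lost at 14 keratin promoters, 4 of the type I and 10 of the type II cluster, against 5.21% of all protein-coding genes (5.49% on the autosomes). It was gained at 11, 7 of the type I and 4 of the type II cluster, against 20.6% (18.2% on the autosomes). No gene was in both lists. A promoter at 100% in wt could not gain, which held for 20 keratin genes and 1308 of all protein-coding genes. One at 0% in wt could not lose, which held for 18 and 17201. The mean share of a keratin promoter under H3K27me3 was 53.6% in wt and 52.0% in wt+TNFα. The median was 58.2% and 43.4%, but since most promoters were near 0% or 100% it rests on few genes, and within each cluster it was the same in both conditions (0% for type I, 100% for type II). The share was larger in wt+TNFα at 11 genes, smaller at 14 and equal at 26. Over all protein-coding genes, it was larger at 4382 and smaller at 824. The paper's reporting summary gives a q-value threshold for H3K27me3 peaks that equals a −log10 q of 2, but both deposited lists reach below it. When only peaks with a −log10 q of at least 2 were kept, the lists covered 38.1 and 122 Mb of the autosomes. H3K27me3 was then left at 9 keratin genes in wt (17.6%) and 23 in wt+TNFα (45.1%), against 13.5% and 20.7% of all protein-coding genes. Losses by base became 5, against 2.07%, and gains 17, against 12.9%. When whole peaks were subtracted in place of bases, 4 losses (Krt33a, Krt34, Krt80 and Krt88) were left, against 1.47% of all protein-coding genes, and 1 gain (Krt40), against 9.49%.

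**Figure D2:**
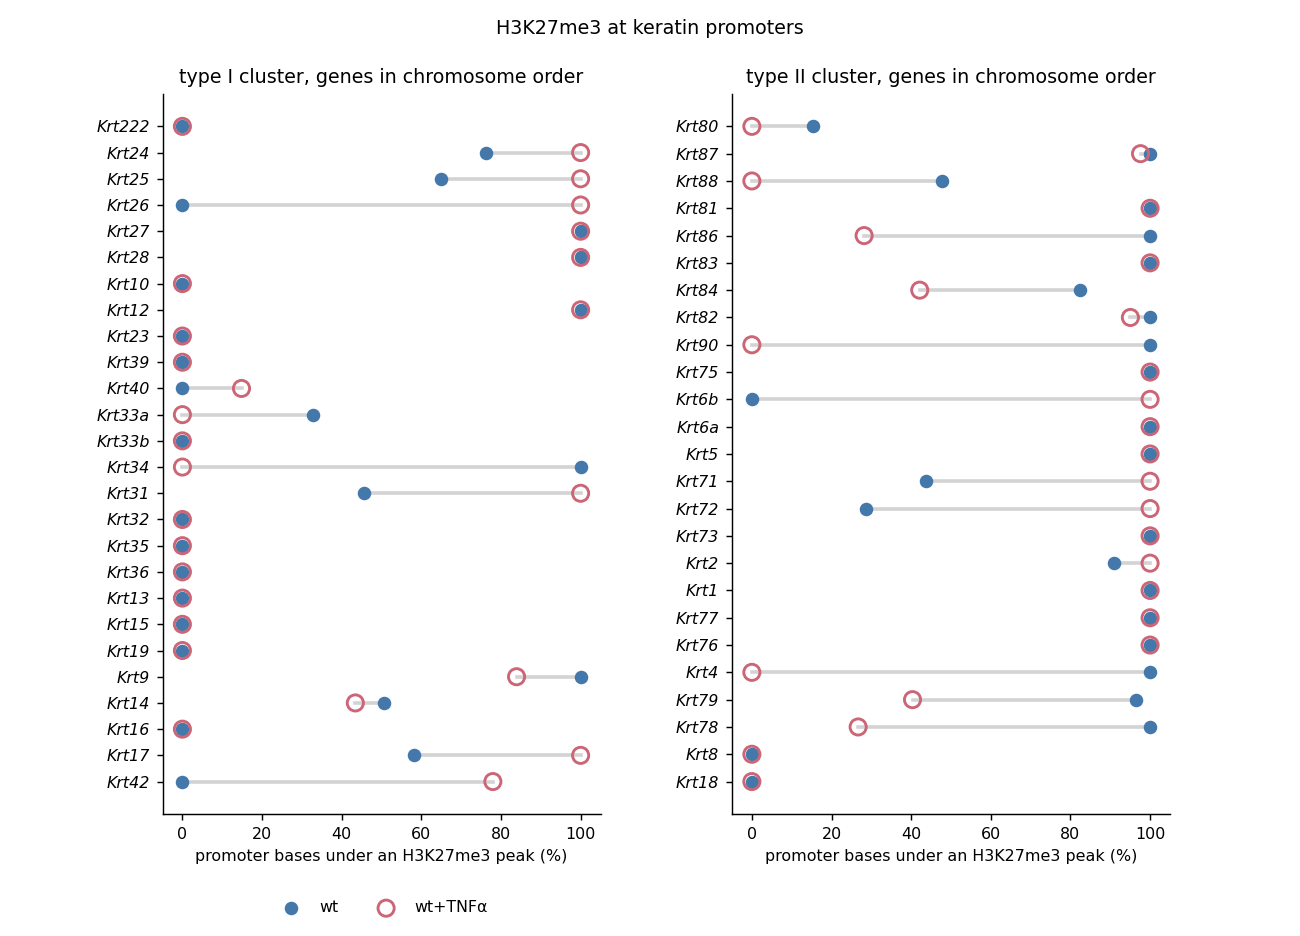
Share of each keratin promoter under an H3K27me3 peak (x axis, %), in wt (filled blue) and wt+TNFα (open red), for the 26 genes of the type I and the 25 of the type II cluster in chromosome order. Krt34, Krt90 and Krt4 went from 100% to 0%, Krt26 and Krt6b from 0% to 100%, and Krt8, Krt18, Krt19 and Krt10 were at 0% in both.

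The type II cluster was densely covered by H3K27me3. In wt, 47 peaks covered 407 kb, or 59.5% of the cluster, against 4.32% of chromosome 15 and 4.12% of the autosomes. In wt+TNFα, 28 peaks covered 422 kb, or 61.7%, against 8.93% of the chromosome and 9.26% of the autosomes. The covered length was thus 1.04 times that of wt in the cluster and 2.25 times on the autosomes. With 59.5% of its bases already covered in wt, against 4.12% of the autosomes, the cluster had far less room for a rise in this ratio. This ratio depended on the settings: with a −log10 q of at least 2 the shares were 19.97% and 56.2%, while the autosomal length of wt+TNFα was then 3.20 times that of wt, and over the keratin gene bodies alone they were 70.6% and 58.3%, in the other direction. With all peaks, 77.7 kb were covered in wt alone and 92.9 kb in wt+TNFα alone. The bounds of the stretches described next were chosen after their values were seen.

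Beginning at the low end, Krt80 had H3K27me3 over 15.5% of its promoter and 55.4% of its gene body in wt and over neither in wt+TNFα. The hair keratin genes Krt81, Krt86 and Krt83, which encode chains of the hair cortex and cuticle, lay under 1 wt peak of 62627 bp, whose fold enrichment of 3.09 was the highest at any keratin promoter of that list. In wt+TNFα a peak of 45442 bp covered Krt83 and part of the Krt86 promoter, with a fold enrichment of 3.62, again the highest. Krt81 was under a separate peak. The share of the Krt86 promoter was 100% in wt and 28.2% in wt+TNFα, while that of its gene body was 100% and 93.3%. Krt87 beside them was at 100% and 97.6%, under peaks whose fold enrichment was 2.59 and 3.50, whereas Krt88 was at 47.8% and 0%.

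From Krt84 to Krt75, the covered share was 75.2% in wt and 43.0% in wt+TNFα. Here a wt peak of 46469 bp ran over Krt82, Krt90 and Krt75. In wt+TNFα it was replaced by a peak of 21290 bp at Krt75, a keratin of the companion layer of the hair follicle, and smaller ones. The Krt90 promoter went from 100% to 0% while 63.5% of its gene body remained under a peak. Krt84 was at 82.4% and 42.2%, and Krt82 at 100% and 95.1%.

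The middle of the cluster was more fully covered in wt+TNFα. From Krt6b to Krt5, 45.2% of the bases were under a peak in wt and 100% in wt+TNFα, where 1 peak of 42598 bp covered the wound-associated keratins Krt6b and Krt6a and the basal keratin Krt5. Krt6a and Krt5 were at 100% of the promoter in both conditions. Krt6b was at 0% in wt and 100% in wt+TNFα, although 17.9% of its gene body was already covered in wt. From Krt71 to Krt76 the covered share was 77.3% in wt and 97.5% in wt+TNFα. A wt+TNFα peak of 120724 bp, wider than 99.9% of its list, ran over the inner root sheath genes Krt71, Krt72 and Krt73 and the epidermal genes Krt2 and Krt1. In wt the same 5 genes were each under peaks of their own, of which that at Krt1 was the strongest (29402 bp, fold enrichment 2.89). Krt71 was at 43.8% and 100% of the promoter, Krt72 at 28.6% and 100%, and Krt2 at 91.1% and 100%. Krt73, Krt1, Krt77 and Krt76 were at 100% in both conditions. The last 2 shared a wt+TNFα peak of 43049 bp (fold enrichment 2.69).

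The end of the cluster went the other way. From Krt4 to Krt78, 95.5% of the bases were under H3K27me3 in wt and 32.5% in wt+TNFα. The promoter of Krt4, a keratin of stratified mucosa such as the oesophagus, was at 100% in wt under a peak of 34252 bp and at 0% in wt+TNFα, and the covered share of its gene body was 100% and 2.95%. Krt79 was at 96.4% and 40.3%, and Krt78 at 100% and 26.7%. Beyond them, from Krt8 to Krt18, there was no H3K27me3 in either condition. The nearest H3K27me3 peak lay 24.6 kb before Krt8 in wt and 32.6 kb before it in wt+TNFα.

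**Figure D3:**
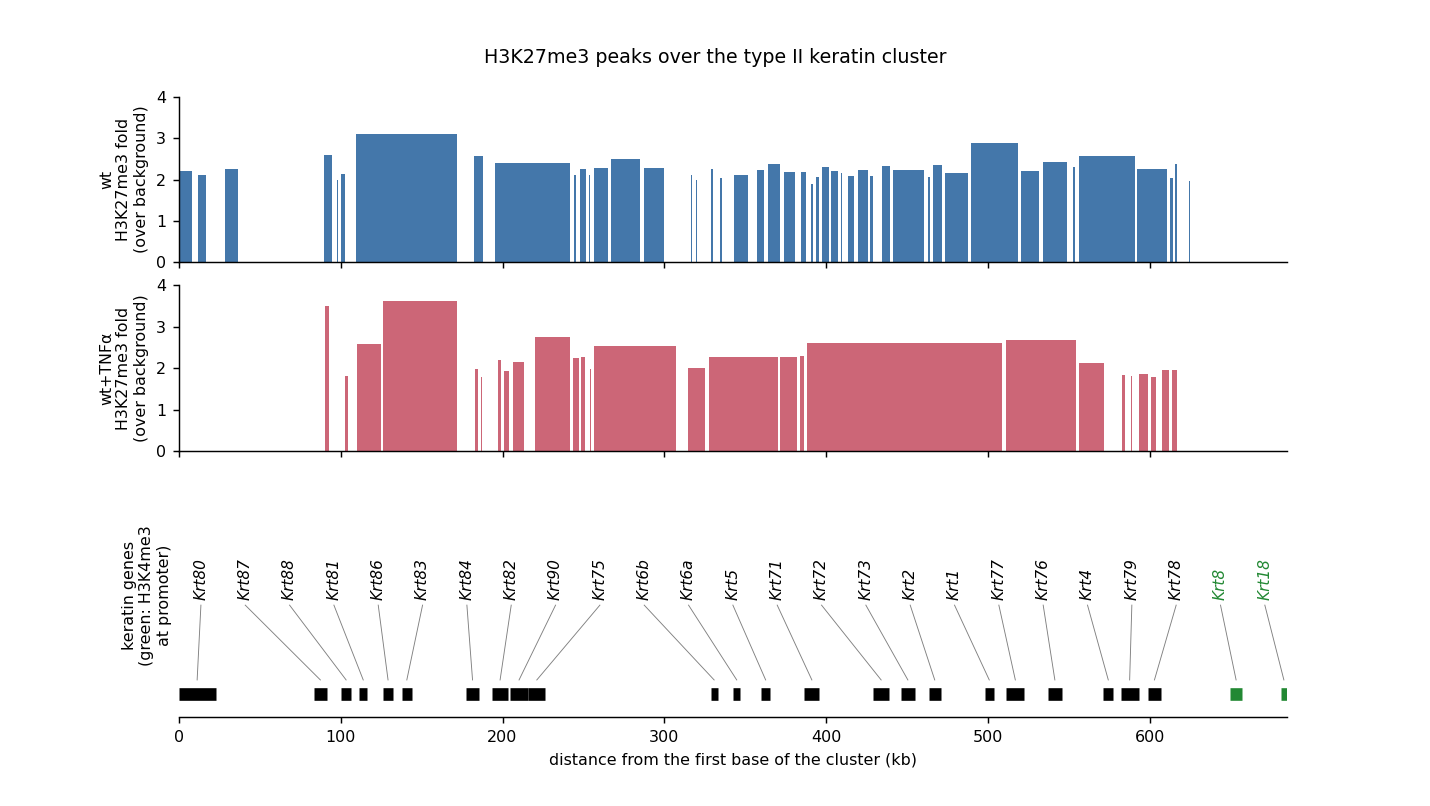
H3K27me3 peaks over the type II cluster in wt (blue) and wt+TNFα (red), by distance from its first base in kb; bar height is the fold enrichment of a peak over background, bar width its length, and genes with H3K4me3 at the promoter are green. The widest wt+TNFα peak, of 120724 bp, spans Krt71 to Krt1, coverage around Krt4 to Krt78 is denser in wt, and Krt8 and Krt18 lie outside every peak.

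The type I cluster was less covered. In wt, 66 peaks covered 173 kb, or 16.7% of the cluster, against 6.81% of chromosome 11. In wt+TNFα, 59 peaks covered 336 kb, or 32.4%, against 13.7% of the chromosome. The covered length was 1.94 times that of wt, beside 2.25 times on the autosomes, with 39.9 kb in wt alone and 203 kb in wt+TNFα alone. Most of the latter, 143 kb, lay in the 468 kb between Krt40 and Krt33a, which hold keratin-associated protein genes and no keratin gene, where the covered share was 11.4% in wt and 38.3% in wt+TNFα. When the wt+TNFα list was reduced by −log10 q to the covered length of wt on the autosomes, the shares in wt+TNFα came to 14.4% in the type I and 52.9% in the type II cluster, below those of wt.

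Within the type I cluster, the inner root sheath genes were the most covered. From Krt25 to Krt28 the share was 71.6% in wt and 99.1% in wt+TNFα, where 1 peak of 63123 bp (fold enrichment 2.201) lay over Krt25, Krt26, Krt27 and Krt28. Krt27 and Krt28 were at 100% of the promoter in both conditions, Krt25 at 64.9% and 100%, and Krt26 at 0% and 100%. In wt, 38.1% of the Krt26 gene body was covered. Krt24, at lower coordinates than these genes, was at 76.3% and 100%. Krt10 lay between covered neighbours: H3K27me3 ended 2.204 kb before the gene in wt and 0.990 kb before it in wt+TNFα, and resumed 6.81 and 6.73 kb after it. Its neighbour Krt12, the keratin of the cornea, was at 100% in both.

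The hair keratin genes from Krt33a to Krt31 went from 46.7% covered in wt to 16.8% in wt+TNFα. Krt34 was at 100% and 0% of the promoter and of the gene body, Krt33a at 32.9% and 0% of the promoter, and Krt31 at 45.5% and 100% of the promoter but 84.5% and 30.6% of the gene body. Krt33b had no H3K27me3 at its promoter in either condition, while 53.3% and 62.8% of its gene body was covered. At the far end, Krt42 was at 0% and 78.0%, and Krt17, which is induced in wounded skin, at 58.2% and 100%, both under 1 wt+TNFα peak of 10524 bp. Krt9, the keratin of palms and soles, was at 100% and 83.9%, and the basal keratin Krt14 at 50.6% and 43.4%. Krt16, beside Krt17, had no H3K27me3 in either condition.

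Long stretches of the type I cluster had neither mark on most genes. From Krt23 to Krt40 and from Krt32 to Krt19, 0% of the bases were under H3K27me3 in wt and in wt+TNFα. The second stretch is 67.8 kb long and holds the hair genes Krt32, Krt35 and Krt36, the mucosal keratin Krt13, the basal keratin Krt15 and Krt19. Of these 6 genes, Krt19 alone had H3K4me3. The upstream side of the Krt40 promoter gained 297 bp of H3K27me3 in wt+TNFα. In all, 10 of 51 keratin genes had neither mark at the promoter in either condition: Krt222, Krt23, Krt39, Krt33b, Krt32, Krt35, Krt36, Krt13, Krt15 and Krt16. The same held for 5751 of the 21938 protein-coding genes with a promoter sequence. Krt23, which is grouped here with the simple epithelial keratins, was thus the only one of its group of 4 without H3K4me3.

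**Figure D4:**
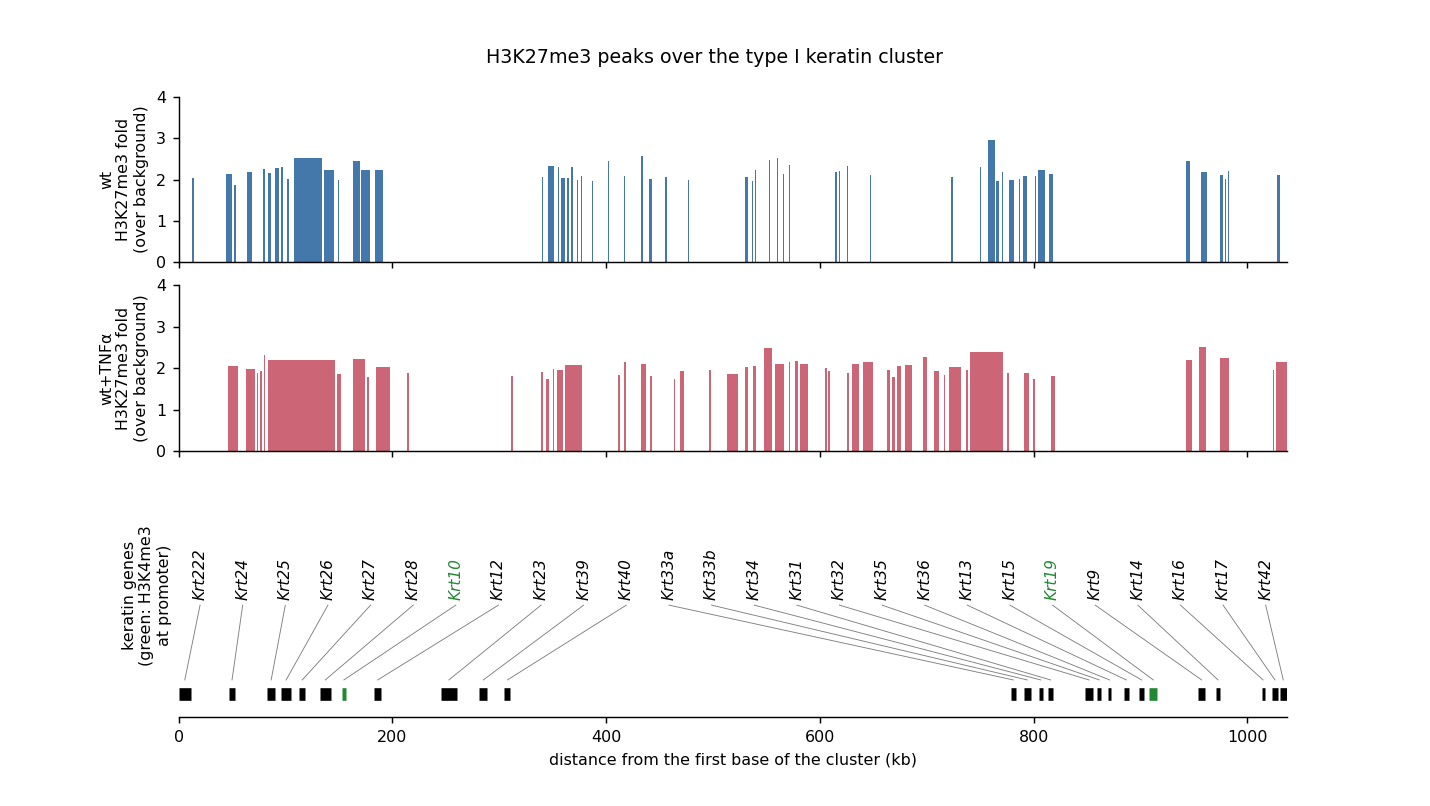
H3K27me3 peaks over the type I cluster in wt (blue) and wt+TNFα (red), by distance from its first base in kb; bar height is the fold enrichment of a peak over background, bar width its length, and genes with H3K4me3 at the promoter are green. A wt+TNFα peak of 63123 bp spans Krt25 to Krt28, the stretches from Krt23 to Krt40 and from Krt32 to Krt19 hold no peak in either condition, and peaks between Krt40 and Krt33a are denser in wt+TNFα.

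Grouped by where the proteins are used, the simple epithelial group had H3K27me3 at 0 of 4 promoters in both conditions and H3K4me3 at 3. The basal group had H3K27me3 at 2 of 3 in both conditions, Krt5 and Krt14. The suprabasal, mucosal and corneal group had it at 11 of 13 in wt and 9 in wt+TNFα, with a larger promoter share in wt+TNFα at 2 genes and a smaller one at 5. The stress and appendage group had it at 3 of 6 and 5 of 6, with a larger share at 3 and a smaller one at none. The inner root sheath group had it at 6 of 7 and 7 of 7, with a larger share at 4 and a smaller one at none. The hair cortex and cuticle group had it at 10 of 16 and 8 of 16, with a larger share at 2 and a smaller one at 7. The 2 genes placed in no group were Krt222, without H3K27me3 in either condition, and Krt90, with a smaller share in wt+TNFα. Over all protein-coding genes, 21.6% and 29.4% had H3K27me3 in wt and wt+TNFα, and the promoter share was larger in wt+TNFα at 4382 and smaller at 824 of 21951. Neighbouring genes of a group often shared 1 peak, so the genes of a group are not independent.

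Genes that work with the keratins were counted in the same way. The 57 keratin-associated protein genes, which encode the matrix of the hair shaft, had no H3K4me3 at any promoter, and H3K27me3 at 16 (28.1%, wt) and 20 (35.1%, wt+TNFα), beside 21.6% and 29.4% of all protein-coding genes. The 23 of them on chromosome 11 had it at 11 and 14 promoters, and the 24 on chromosome 16 at 0 in both conditions. In wt alone it lay at 5 of the 57 (8.77%, against 1.21%), and in wt+TNFα alone at 9 (15.8%, against 9.0%). In the epidermal differentiation complex, which encodes the cornified envelope of the skin, H3K27me3 lay at 5 of 45 promoters (11.1%) without and 9 (20%) with TNFα, below those shares, and H3K4me3 at 0 and 1. The 14 other intermediate filament genes had H3K27me3 at 11 promoters in both conditions. Among these, Vim, the mesenchymal filament, went from 60.7% to 100% of the promoter, and Des, the muscle filament, was at 100% in both. Another list held plakins that anchor keratin filaments, the desmosomal genes Jup, Pkp1, Pkp2 and Pkp3, and epithelial regulators. It had H3K4me3 at 15 of 19 promoters in both conditions (78.9%, against 50.5% and 51.2% of all protein-coding genes). H3K27me3 lay at 5 (26.3%) and 6 (31.6%) of them, beside 21.6% and 29.4%. Of the 19 genes, the desmosomal linker Dsp had H3K4me3 alone, and Trp63, the regulator of stratified epithelia, had neither mark.

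**Figure D5:**
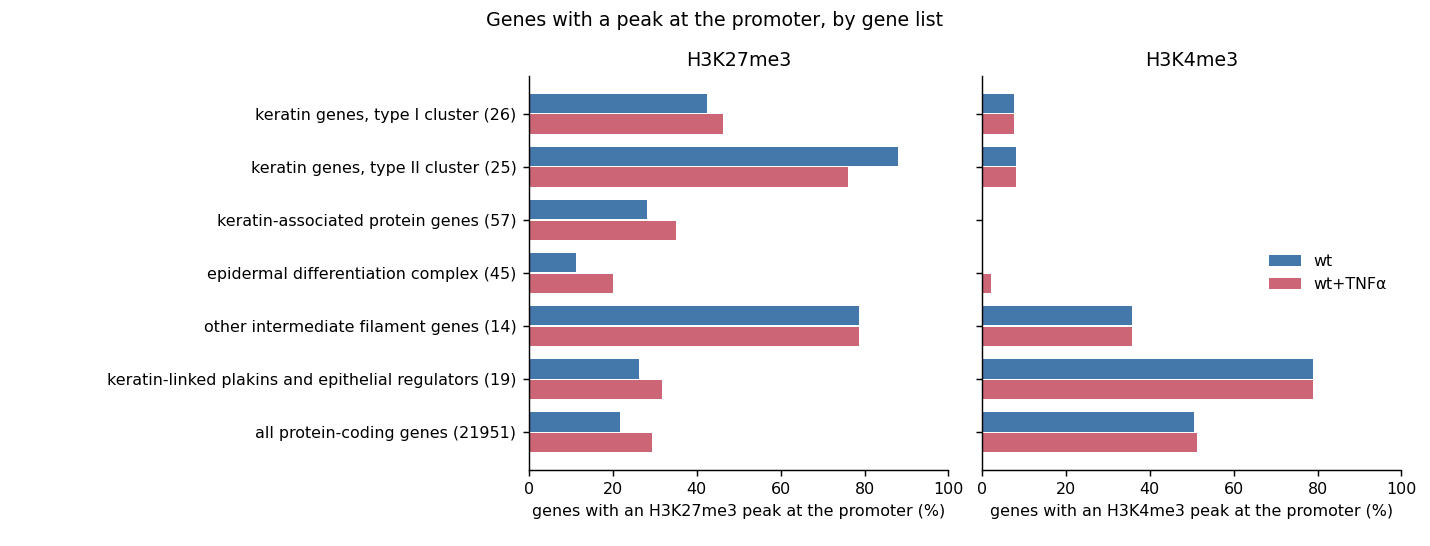
Share of genes with an H3K27me3 peak (left) or an H3K4me3 peak (right) at the promoter, in wt (blue) and wt+TNFα (red), by gene list, with the number of genes in brackets. The type II cluster had the highest H3K27me3 share in wt, at 88.0%. In wt+TNFα its share of 76% was below the 78.6% of the other intermediate filament genes. Both keratin clusters had H3K4me3 at a smaller share of genes than all protein-coding genes.

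CpG dinucleotides were sparse at most keratin promoters. Over 1000 bp on each side of the starts, the median CpG frequency of keratin promoters was 0.264 of that expected from their base composition, against 0.362 for all protein-coding promoters, while the median GC content was 50.9% against 48.8%. The ratio was below the median of all protein-coding promoters at 44 of 51 keratin promoters, and above it at Krt10, Krt28, Krt87, Krt25, Krt18, Krt26 and Krt27. The 4 promoters with H3K4me3 had a median CpG ratio of 0.384, from 0.285 at Krt19 to 0.597 at Krt10, against 0.455 for all protein-coding promoters with H3K4me3 in wt. Those with H3K27me3 in both conditions had 0.255, against 0.396 for all protein-coding promoters with H3K27me3 in wt. Of 51 members, 34 had an entry in the RefSeq promoter table of 300 bases, and 18 of these held TATAAA, the TATA box, on either strand, against 14.3% of the protein-coding genes in the table. They included Krt8 and Krt10 as well as Krt34 and Krt26. GGGCGG, a GC box, was in the Krt75 promoter alone, against 51.0%, and TGANTCA, the AP-1 motif, in the Krt13 promoter alone, against 8.15%. Matches of the 3 motifs were counted separately, whether or not they overlapped, and a match is a string of letters and not a bound site.

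Some keratin genes are near copies of each other, so reads could be placed at the wrong copy. Within the clusters, 9 of 51 promoters held a stretch of 150 bases that occurred more than once, and in these the repeated share was at most 8.05%, at Krt34, with 7.66% at Krt6a and 7.29% at Krt6b. The values of Krt34, Krt33a, Krt31, Krt6a, Krt6b, Krt81, Krt86, Krt83 and Krt16 are less certain for this reason. Of the 6 genes with H3K27me3 in wt alone, Krt4 alone was under a wt peak with −log10 q of at least 2, whereas Krt26, Krt42 and Krt6b of the 4 in wt+TNFα alone were. The 2 lists end at different −log10 q, 0.302 in wt and 0.747 in wt+TNFα, and the wt peak at Krt33a, at 0.522, lies between these ends.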

How the data were processed

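H3K27me3 and H3K4me3 ChIP-seq were performed on wt and wt+TNFα organoids, with 1 library per condition and mark. The planned depth per the labels was 60000000 reads (H3K27me3) or 40000000 reads (H3K4me3 and input). By the reporting summary, wt+TNFα was sequenced more deeply than wt for H3K4me3 and for the input, whereas the H3K27me3 libraries had nearly equal numbers of reads. The reads and the inputs were not analysed here, so the precision of a peak is unknown. After trimming (fastp), the authors mapped reads with bwa-mem (version 2.2) on GRCm38/mm10. Duplicates (SAMtools, version 1.11) and blacklisted regions were removed, and MACS2 was run with the input as control, in broad mode for H3K27me3 and in narrow mode for H3K4me3. Sources disagree on the MACS2 version. The names of all lists but that of wt+TNFα H3K27me3 mention a spike-in, which the paper's text does not describe. Whether the lists were scaled with it is not given in the sources used here, so each H3K27me3 comparison may set differently processed lists side by side. Broad peaks merge nearby weaker signal, so the width of a domain depends on the caller.

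The deposited lists give each peak's fold enrichment (a ratio to the local background), the authors' p-value and q-value as −log10, and a score column that was not used. The deposited wt H3K27me3 list reached down to a −log10 q of 0.302, and that of wt+TNFα to 0.747. Both ends lie below the −log10 q of 2 that corresponds to the threshold in the reporting summary. The wt peaks at Krt24 and Krt33a had values between these ends.

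Peak positions were made 1-based, and overlapping peaks of a list were merged. Promoters reached 1000 bp to both sides of each GENCODE release M21 transcript start, and 1 bp of overlap sufficed. Gains and losses were bases called in one condition and not in the other. CpG and GC values were read from the GRCm38 genome. Python 3.11.15 and matplotlib 3.10.9 were used, and the calculation was tested on simulated lists. Alternatives were promoters of 500 or 2000 bp, 1 start per gene, an overlap of 200 bp, subtraction of whole peaks, 3 thresholds on −log10 q, equal covered length and other cluster limits.

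Members and gene lists were chosen with earlier results of these data known. Named genes were the keratins of simple, basal, suprabasal and stressed epithelia, those with H3K4me3, those with H3K27me3 in 1 condition alone, the 5 highest H3K27me3 fold enrichments per condition and the cluster ends. Further keratins were named after their values were seen. 2 keratin genes are not reported here. There was no test, error or p-value.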

Additional observations from a re-analysis of the deposited data

How the results depend on the processing

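Of 56 values of keratin gene counts under alternative settings, 41 stayed within 1.5 times the reported count. With H3K27me3 peaks of −log10 q of at least 2, the wt count of keratin genes was 9, with 5 losses and 17 gains by base. Krt9 and Krt14, losses with all peaks, were then gains. Krt31, a gain with all peaks, was a loss above the median −log10 q of each list and with equal numbers of peaks. Krt24, also a gain with all peaks, was a loss with equal covered length on the autosomes. Subtraction of whole peaks gave 4 losses and 1 gain of H3K27me3, and 0 losses and 1 gain of H3K4me3. With 1 start per gene, H3K4me3 lay at 2 genes in wt and 2 in wt+TNFα, with 1 gain and 2 losses. Promoters of 500 bp gave 0 gains and 2 losses of H3K4me3. H3K4me3 gains were 0 above the median −log10 q of each list and 1 with equal numbers of peaks.

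Above the median −log10 q, the covered shares were 12.5% in wt and 29.0% in wt+TNFα for the type I cluster, and 57.6% and 59.7% for the type II cluster. With equal numbers of peaks, wt+TNFα had 29.0% and 59.7%. With −log10 q of at least 2 they were 3.61% and 20.5% for type I, and 19.97% and 56.2% for type II. With equal covered length on the autosomes, wt+TNFα had 14.4% for type I and 52.9% for type II, differing from wt by −2.28 and −6.52 percentage points, which turned both differences. With limits extended by 50 kb they were 15.2% and 29.7%, and 52.3% and 54.0%. Over the keratin gene bodies alone, type I had 29.2% and 38.8% and type II 70.6% and 58.3%, which also turned the type II difference. Equal covered length keeps fewer wt+TNFα peaks by construction, and the cause of the other shifts was not tested. No paired analysis was possible because each condition had 1 library per mark. With 1 library, the error of each value is unknown, and a stretch without a peak may hold signal below the caller's threshold.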

Other observations

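Outside the keratin family, 1 skin gene had a different mark in each condition. Lor, the loricrin of the cornified envelope in the epidermal differentiation complex, had H3K27me3 over 100% of its promoter in wt (fold enrichment 2.78) and over 0% in wt+TNFα. H3K4me3 covered 0% of the Lor promoter in wt and 53.1% in wt+TNFα, with a fold enrichment of 24.1. No keratin promoter combined a loss of H3K27me3 with H3K4me3 in wt+TNFα. In the same complex, Tchh, which hardens the inner root sheath, was at 100% of H3K27me3 in both conditions. H3K27me3 lay at 7 of 45 promoters of the complex (15.6%) in wt+TNFα alone, against 9.0% of all protein-coding genes, and at 3 of 45 (6.67%), those of Lor, Ivl and Lce3c, in wt alone, against 1.21%. Lor was named after its values were seen.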
